A study of Mus musculus with 4 samples.

Results

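The 10 genes described here encode the enzymes, binding proteins, receptors and retinol carrier receptor of the retinoic acid pathway, and their expression was compared between cervical motor neurons (MNs) from WT and *Patz1* KO mouse embryonic stem cells (mESCs). They were chosen by symbol (*Stra6*, *Aldh1a2*, *Crabp1*, *Crabp2*, *Rara*, *Rarb*, *Rarg*, *Cyp26a1*, *Cyp26b1* and *Cyp26c1*) from the 23420 gene symbols in the count tables, and all 10 had enough counts to be tested. The WT group held 2 libraries from E14, a mouse embryonic stem cell line, and the *Patz1* KO group held 2 libraries from E14 cells of genotype Patz1 -/-. The knock-out was made with Cas9 and an sgRNA against *Patz1*, a zinc finger gene, followed by the picking of single clones, and the labels do not name the clone behind each library. The sample titles name ESCs, whereas the source and cell type fields name MNs differentiated from them, and the libraries were taken as MNs. Both groups went through the same differentiation. The medium given to the 2-day embryoid bodies held retinoic acid at 1 μM and, to activate Hedgehog signalling, smoothened agonist at 0.5 μM. No sorting of MNs is named in the methods, so each library is bulk RNA of whole cultures, in which fewer cells of a type and less RNA per cell cannot be told apart.

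Retinoic acid is made inside cells from vitamin A. STRA6 lets retinol into the cell, retinol dehydrogenases oxidise it to retinaldehyde, and ALDH1A2 oxidises retinaldehyde to retinoic acid. CRABP1 and CRABP2 carry retinoic acid in the cytoplasm, the receptors RARA, RARB and RARG bind it in the nucleus as heterodimers with RXR proteins, and the CYP26 enzymes break it down. In the embryo, retinoic acid from the paraxial mesoderm patterns the hindbrain and cervical spinal cord, which is why it is added to the medium here to obtain cervical MNs. *Rarb* and *Cyp26a1* are themselves classical targets of the receptors.

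The WT libraries held 14769104 and 15728158 counts, and the *Patz1* KO libraries 23881522 and 17402342. The targeted gene had counts in both *Patz1* KO libraries, where *Patz1* stood at 45.1 ± 3.56 CPM (counts scaled to the TMM library size; SD, n = 2), against 92.9 ± 1.96 CPM (SD, n = 2) in WT. According to the paper, the PATZ1 western blot signal was lost in *Patz1* KO mESCs, and the knock-out was also checked by genotyping and sequencing. Replicates, which the methods describe as independent differentiations, differed by more than counting noise (chi-square per gene of 9.87 in WT and 22.0 in *Patz1* KO). The share of the counts on *Rn45s*, *Rpph1* and *Rmrp*, which are non-coding RNAs, was 6.33% to 6.55% in WT, 6.81% in *Patz1* KO replicate 1 and 9.65% in replicate 2. The 10 MN markers checked, among them *Mnx1*, *Isl1*, *Lhx3* and *Chat*, were present in every library, with summed levels of 716 and 671 CPM in WT and 1093 and 1007 CPM in *Patz1* KO.

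In *Patz1* KO MNs, 7 of the 10 retinoic acid genes were lower and 2 were higher than in WT by edgeR's quasi-likelihood test (threshold 0.05 on the p-value after Benjamini-Hochberg adjustment over all genes). Among the 14269 genes tested, 47.9% were called in this comparison. As shares of all genes tested, 24.1% were higher and 23.8% lower. The genes that fell were *Cyp26c1*, *Cyp26a1*, *Stra6*, *Aldh1a2*, *Rarb*, *Crabp2* and *Cyp26b1*, and those that rose were *Rarg* and *Crabp1*. *Rara* did not pass the test. The median log2 fold change, given throughout as *Patz1* KO over WT, was -0.40 for the 10 genes and -0.0014 for all genes tested. In 5 of the 10 genes (*Cyp26c1*, *Cyp26a1*, *Stra6*, *Rarg* and *Aldh1a2*) the change was called and larger than 1 on the log2 scale, as in 12.9% of all genes. The WT and *Patz1* KO values did not overlap for any of the 10 genes, as for 74.2% of all genes tested. A test for a change of more than 1 on the log2 scale, which 5.03% of all genes passed (1.92% higher, 3.11% lower), left *Cyp26a1* alone among the 10. The smallest p that exact permutation of 2 against 2 libraries allows is 0.333, so no such test was run.

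**Figure D1:**
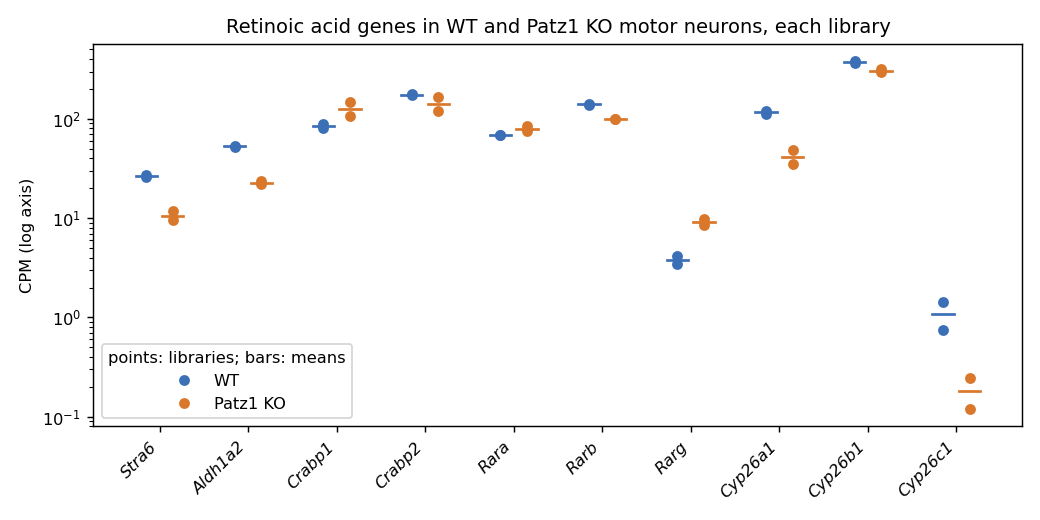
Expression of the 10 retinoic acid genes in each library, in CPM on a log axis; points are libraries (2 WT, 2 *Patz1* KO) and short bars are group means. The groups do not overlap for any of the genes, and the widest gaps are those of *Cyp26c1*, *Cyp26a1*, *Stra6*, *Rarg* and *Aldh1a2*.

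The genes for retinol entry and retinoic acid synthesis both fell to less than 50% of their WT level. *Stra6*, the membrane receptor that takes up retinol from its plasma carrier, is on chromosome 9 (GRCm38, the mm10 assembly) at 58063788 to 58153996 on the plus strand. It was at 25.9 and 26.9 CPM in the WT libraries and at 11.7 and 9.48 CPM in the *Patz1* KO libraries. The level in *Patz1* KO was 40.4% of that in WT, with a log2 fold change of -1.31 (standard error, SE, 0.13, edgeR adjusted p = 4.19e-07). *Aldh1a2*, the main retinaldehyde dehydrogenase of the embryo, lies on the same chromosome from 71215789 to 71296243 on the plus strand. It was at 51.9 and 53.7 CPM in WT and at 23.6 and 21.9 CPM in *Patz1* KO, so the libraries of a genotype stood close together and the genotypes far apart. The level in *Patz1* KO was 43.2% of that in WT, a log2 fold change of -1.21 (SE 0.10, edgeR adjusted p = 3.69e-08). Fits that left out a single library gave log2 fold changes from -1.47 to -1.17 for *Stra6* and from -1.26 to -1.16 for *Aldh1a2*.

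The 2 binding proteins went in opposite directions. *Crabp1* (chromosome 9, 54764748 to 54773110, plus strand), whose protein is linked to retinoic acid breakdown, was at 88.1 and 80.6 CPM in WT and at 106 and 147 CPM in *Patz1* KO. The log2 fold change of *Crabp1* was 0.58 (SE 0.12, edgeR adjusted p = 0.000586). *Crabp2* (chromosome 3, 87948666 to 87953376, plus strand), whose protein hands retinoic acid to the receptors, was at 177 and 175 CPM in WT and at 121 and 164 CPM in *Patz1* KO. The 2 WT libraries were nearly equal, whereas the *Patz1* KO libraries were apart for both genes, with replicate 2 the higher in each. The log2 fold change of *Crabp2* was -0.31 (SE 0.11, edgeR adjusted p = 0.0318). It was not called without *Patz1* KO replicate 1 (-0.094, edgeR adjusted p = 0.349), WT replicate 1 (0.105) or WT replicate 2 (0.0944), and it was -0.54 without *Patz1* KO replicate 2. *Crabp1* was called without either library, with log2 fold changes of 0.80 and 0.34. The ratio of *Crabp1* to *Crabp2* counts within a library, which no scaling of the libraries can move, was 0.498 and 0.461 in WT and 0.881 and 0.893 in *Patz1* KO. This ratio varied less between the *Patz1* KO libraries than either gene alone.

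The receptor genes gave 1 rise, 1 fall and 1 change that was not called. *Rarb* lies on chromosome 14 from 16430839 to 16819156 on the minus strand, and its RefSeq promoter window, which runs from 250 bases before to 50 bases after the transcription start, holds a retinoic acid response element of the DR5 kind. Such an element is a pair of half-sites in the same direction (AGGTCA or AGTTCA, or beginning with G instead, GGGTCA or GGTTCA) with 5 bases between them, and it is shown with that of *Cyp26a1*, since those were the only members with a match. The search took DR1, DR2 and DR5 elements, with 1, 2 or 5 bases between the half-sites, on both strands of GRCm38.p6, and overlapping matches were kept. In the lines below, capitals mark the element, 6 flanking bases stand on each side, and both are written 5′ to 3′ in the direction of the half-sites.
*Rarb*: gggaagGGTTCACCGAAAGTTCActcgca
*Cyp26a1*: caaattAGTTCACCCAAAGTTCAtcttta

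The *Rarb* element occupies chr14:16575513-16575529, on the strand of the gene, 53 to 37 bases before the RefSeq start. The *Cyp26a1* element occupies chr19:37697776-37697792, 32 to 16 bases before the start, and runs against the strand of the gene. The 17 bases of the elements are identical at 15 positions and differ by G1A and G9C (the *Rarb* base first, counted from the 5′ end, then the *Cyp26a1* base). Of 32851 promoter windows of the same length, 0.0974% held a DR5 element, and 0.588% held an element of any of the 3 kinds. RefSeq windows were found for 9 of the 10 genes, *Crabp2* having none, and the windows of the other 7 genes held no match to these letters.

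*Rarb* was at 139 and 142 CPM in the WT libraries and at 99.3 and 101 CPM in the *Patz1* KO libraries. Replicates differed by little beside the gap between genotypes, and the log2 fold change was -0.49 (SE 0.085, edgeR adjusted p = 0.000131). The annotated exons of *Rarb* share 1793 bases with those of *Top2b* on the other strand, and the strand setting of the counting is not given in the sources used here. *Top2b* had a log2 fold change of -0.19 (edgeR adjusted p = 0.144) and stood at 740 CPM in WT, above *Rarb*. Without the strand setting, the share of *Top2b* reads in the *Rarb* value cannot be told, and it was not tested. *Rarg* (chromosome 15, 102234938 to 102257517, minus strand), the receptor typical of early and mesenchymal tissue, was at 3.42 and 4.15 CPM in WT and at 8.58 and 9.72 CPM in *Patz1* KO. It reached 2.40 times its WT level, a log2 fold change of 1.26 (SE 0.21, edgeR adjusted p = 6.86e-05). *Rara* (chromosome 11, 98927818 to 98974942, plus strand), the receptor expressed in most tissues, was at 69.5 and 69.4 CPM in WT and at 84.5 and 74.8 CPM in *Patz1* KO. For *Rara* the log2 fold change was 0.20 (95% interval 0.0028 to 0.40, not adjusted for the number of genes, edgeR adjusted p = 0.0873). Without *Patz1* KO replicate 2 it was 0.29 and called, and without replicate 1 it was 0.11 and not called.

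**Figure D2:**
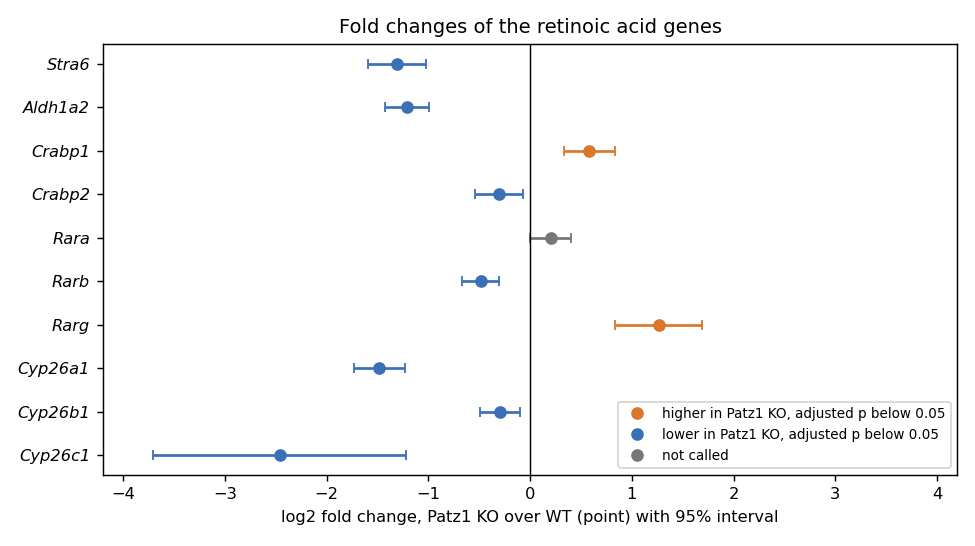
Log2 fold change of each gene, *Patz1* KO over WT, with its 95% interval from edgeR's quasi-likelihood fit over 2 WT and 2 *Patz1* KO libraries; colour marks the direction of the genes called at an adjusted p below 0.05. *Rarg* and *Crabp1* lie above 0, *Rara* is not called, and the interval of *Cyp26c1* is the widest, from -3.70 to -1.22.

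The 3 genes for breakdown of retinoic acid fell, each by a different amount. *Cyp26a1*, whose promoter element is shown above, lies on chromosome 19 from 37697798 to 37701536 on the plus strand and encodes the enzyme that retinoic acid induces most readily. It was at 113 and 121 CPM in WT and at 48.4 and 34.9 CPM in *Patz1* KO, with the *Patz1* KO libraries less alike than those of WT. The level in *Patz1* KO was 35.8% of that in WT, a log2 fold change of -1.48 (SE 0.12, edgeR adjusted p = 2.65e-08). *Cyp26b1* (chromosome 6, 84571414 to 84593908, minus strand), the enzyme of the hindbrain and limb bud, was the most counted of the 10 genes, at 379 and 367 CPM in WT and 293 and 315 CPM in *Patz1* KO. Its fall to 81.5% of the WT level was small (log2 fold change -0.30, SE 0.093, edgeR adjusted p = 0.0141). It was not called without WT replicate 1 or without WT replicate 2, although the 4 leave-one-out fits gave log2 fold changes from -0.34 to -0.24.

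*Cyp26c1*, which lies 4399 bases from *Cyp26a1* on the same strand (37685581 to 37693398), had few counts. The WT libraries had 11 and 23 counts of it (0.739 and 1.45 CPM), the *Patz1* KO libraries 6 and 2 (0.248 and 0.119 CPM). The WT libraries stood further from each other, relative to their level, than for any of the other genes. The summed counts gave a level 5.66 times higher in WT, with a 95% interval from 2.57 to 14.2 that covers counting error only (exact binomial). The log2 fold change of *Cyp26c1* was -2.46 (SE 0.59, edgeR adjusted p = 0.00222), without WT replicate 2 it was -1.89 and not called (edgeR adjusted p = 0.128), and without *Patz1* KO replicate 1 it was -3.12.

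Within a library, the ratio of *Cyp26a1* to *Cyp26b1* counts was 0.298 and 0.330 in WT and 0.165 and 0.111 in *Patz1* KO. Per kilobase of annotated exon, *Cyp26a1* made up 44.4% and 46.8% of the summed CYP26 level in WT and 30.8% and 23.0% in *Patz1* KO. *Cyp26b1* made up most of the rest. The summed level itself was 128 and 130 CPM per kilobase in WT and 79.3 and 76.5 in *Patz1* KO, so the groups did not overlap. Among the receptors, *Rarg* made up 1.87% and 2.23% of the summed level per kilobase in WT and 5.004% and 5.916% in *Patz1* KO. The share of *Rarb* was 61.2% and 61.5% in WT and 46.9% and 49.6% in *Patz1* KO. The summed level of the receptors moved less, from 43.1 and 43.8 CPM per kilobase in WT to 40.2 and 38.6 in *Patz1* KO. With 2 libraries in each group these shares and sums were not tested.

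**Figure D3:**
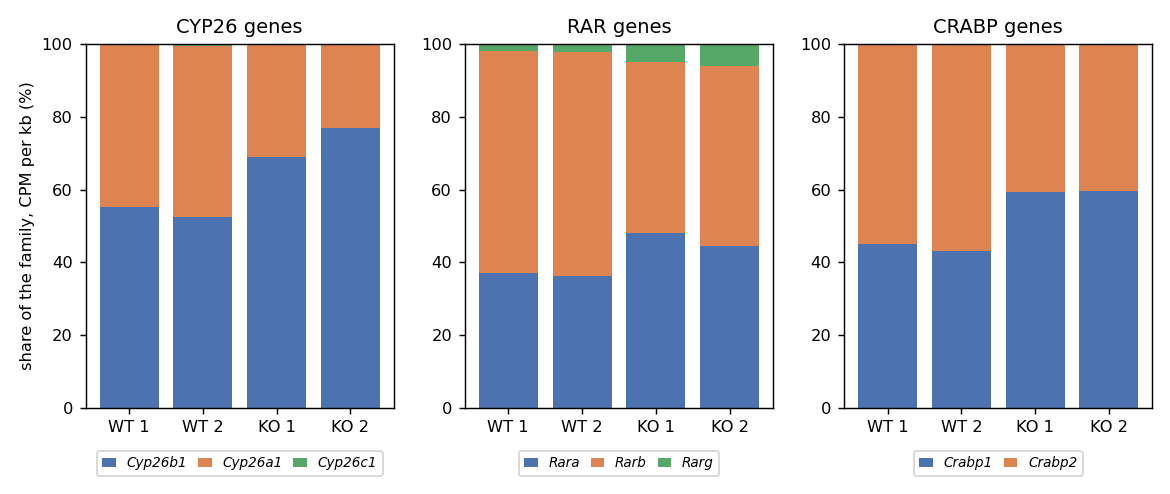
Share of each paralogue in the summed level of its family in each library, in CPM per kilobase of annotated exon (bars add to 100%; *Cyp26c1* is under 1% and not visible). In both *Patz1* KO libraries *Cyp26a1*, *Rarb* and *Crabp2* take a smaller share than in either WT library.

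The order of the levels in WT, in CPM per kilobase of annotated exon (mean ± SD, n = 2), was *Crabp2* (133 ± 1.24), *Crabp1* (105 ± 6.63), *Cyp26b1* (69.7 ± 1.66), *Cyp26a1* (59.0 ± 2.81), *Rarb* (26.6 ± 0.393), *Aldh1a2* (23.3 ± 0.567), *Rara* (15.9 ± 0.0185), *Stra6* (4.53 ± 0.122), *Rarg* (0.889 ± 0.121) and *Cyp26c1* (0.625 ± 0.287). The libraries of *Rarg* and *Cyp26c1* overlapped, and those of the other neighbours in this order did not. In *Patz1* KO, *Crabp1* was first (158 ± 35.4 CPM per kilobase), *Crabp2* next (108 ± 23.2) and *Cyp26b1* the third (56.8 ± 2.88). *Cyp26a1* (21.0 ± 4.83), *Rarb* (19.0 ± 0.183) and *Rara* (18.3 ± 1.57) could not be ordered within their spread. *Aldh1a2* (10.05 ± 0.504) followed, then *Rarg* (2.15 ± 0.189) and *Stra6* (1.81 ± 0.266), whose ranges nearly touched, and *Cyp26c1* (0.105 ± 0.0519). With the longest coding transcript as length, the order of the means in WT was the same. In *Patz1* KO, *Crabp1* (158) and *Crabp2* (153) were then nearly equal, *Rarb* lay above *Cyp26a1* and *Rara*, and neither *Rara* and *Cyp26a1* nor *Stra6* and *Rarg* could be ordered within their spread.

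Other genes of the pathway were taken from 4 lists of 55 genes in all, of which 45 were tested. In *Patz1* KO MNs, 22 genes of these lists were lower and 7 higher, or 64.4% called, against 47.9% of all genes. Among enzymes that convert retinol and retinal, 5 of the 10 tested were lower and 2 higher, against 23.8% and 24.1% of all genes tested. Their median log2 fold change was -0.69. *Rdh10*, which carries out the first oxidation of retinol in the embryo, had 297 and 339 counts in WT against 220 and 143 in the deeper *Patz1* KO libraries, and fell (log2 fold change -1.23, SE 0.14, edgeR adjusted p = 1.29e-06). The main embryonic genes for both oxidation steps, *Rdh10* and *Aldh1a2*, were thus lower. *Cyp1b1*, which can oxidise retinol and retinal without ALDH1A2, fell from 697 and 838 counts to 83 and 72, with a log2 fold change of -3.71. *Dhrs4* had a log2 fold change of -1.43 and *Aldh1a1*, with 18 and 22 counts in WT against 4 and 5, one of -2.52. For *Adh1* the WT libraries had 24 and 28 counts and the *Patz1* KO libraries 4 and 1, a summed level 13.9 times higher in WT (95% counting interval 5.57 to 44.4), and its log2 fold change went from -3.72 to -4.65 without *Patz1* KO replicate 1. *Rdh11* (log2 fold change 0.39) and *Rdh14* (0.49) were called higher, but *Rdh11* was not called without WT replicate 1 (0.31) nor *Rdh14* without WT replicate 2 (0.39) or by DESeq2 (0.50). *Dhrs3*, which turns retinaldehyde back into retinol and is induced by retinoic acid, had a log2 fold change of -0.16 (edgeR adjusted p = 0.14), and *Rdh13* (0.090) and *Adh5* (0.10) were not called either. The log2 fold change of *Dhrs3* was -0.24 without *Patz1* KO replicate 1, a fit in which it was called. *Dhrs3*, *Rdh13* and *Adh5* were named after their values had been seen.

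Among genes for storage and transport, 4 of the 8 tested were lower and 1 higher, against 23.8% and 24.1% of all genes tested. The median log2 fold change of this list was -0.12. *Lrat*, which esterifies retinol for storage, fell from 384 and 464 counts to 112 and 50 (log2 fold change -2.82, SE 0.17, edgeR adjusted p = 7.21e-10). *Rbp4*, the plasma carrier that STRA6 recognises, fell from 245 and 321 counts to 26 and 24 (log2 fold change -3.90, SE 0.22). *Ttr*, whose protein binds RBP4 in plasma, had 13 and 28 counts in the WT libraries against 4 and 2, a summed level 9.10 times higher in WT (95% counting interval 3.84 to 26.2), and its log2 fold change went from -3.12 to -2.52 without WT replicate 2. *Fabp5*, a fatty acid binding protein that also binds retinoic acid, fell by 0.39 on the log2 scale (not called without WT replicate 1, -0.35), and *Rbp2* rose by 1.02. *Dgat1* (log2 fold change 0.26) and *Retsat* (0.38) were not called. Without *Patz1* KO replicate 2 the log2 fold change of *Dgat1* was 0.28, and it was called in that fit. *Dgat1* and *Retsat* were named after their values had been seen.

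The partner receptors did not move together. *Rxrg* rose from 186 and 200 counts to 748 and 399 (log2 fold change 1.13, SE 0.14, edgeR adjusted p = 3.61e-06), *Rxrb* rose by 0.32 (not called without WT replicate 1, 0.34, or WT replicate 2, 0.31), and *Rxra* had a log2 fold change of -0.13 (adjusted p = 0.283). In this list of 13 partner receptors and coregulators, all tested, 2 were higher and 4 lower around a median of -0.15, a share close to the 47.9% of all genes. The coregulator genes with the smallest p were *Nrip1*, a receptor corepressor that retinoic acid induces, with a log2 fold change of -0.66, and the acetyltransferase genes *Crebbp* (-0.53) and *Ep300* (-0.44).

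Of 16 genes known to respond to retinoic acid, 14 were tested, 9 were lower and 2 higher, and the median log2 fold change was -0.53. Among all genes tested, 23.8% were lower and 24.1% higher. *Stra8*, the germ cell gene that retinoic acid switches on at meiosis, had 75 and 108 counts in the WT libraries against 6 and 2, a summed level 30.5 times higher in WT (95% counting interval 15.1 to 71.6), and its log2 fold change went from -4.88 to -5.54 without *Patz1* KO replicate 1. *Tgm2*, the tissue transglutaminase, fell from 372 and 367 counts to 90 and 66 (log2 fold change -2.65, SE 0.16, edgeR adjusted p = 4.04e-10). *Nr2f2*, an orphan nuclear receptor, fell by 1.00 on the log2 scale. *Bhlhe40*, first cloned as a retinoic acid response gene and also a target of the hypoxia factors, went the other way, from 49 and 65 counts to 557 and 444 (log2 fold change 2.73). The homeobox genes *Meis1* (log2 fold change -0.018) and *Meis2* (-0.12) and the zinc finger gene *Zfp703* (-0.035) were not called and were named after their values had been seen.

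**Figure D4:**
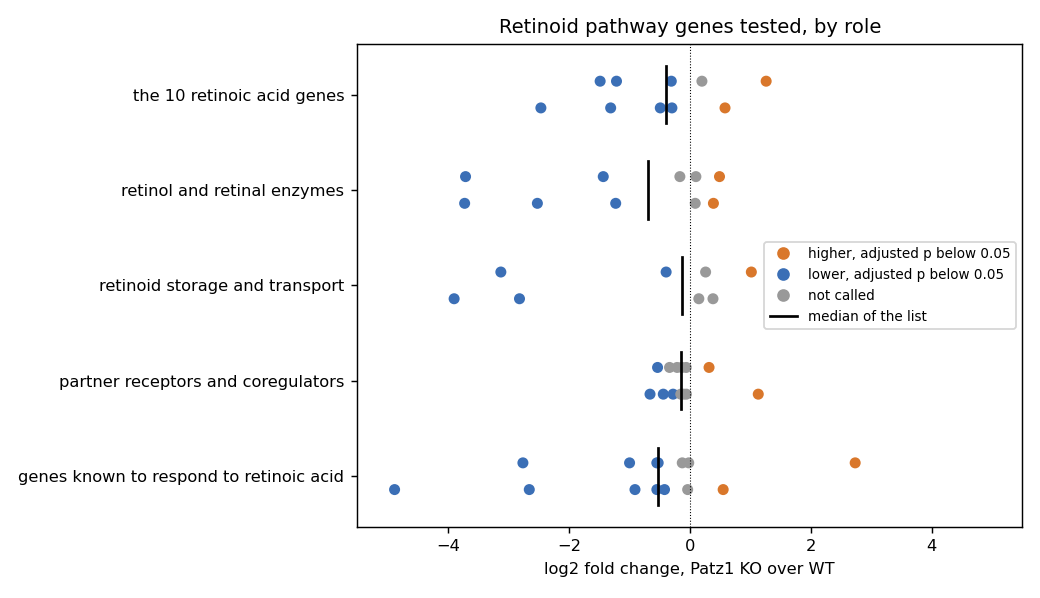
Log2 fold change (*Patz1* KO over WT) of each tested gene, by list; every point is a gene, coloured by its call at an adjusted p below 0.05, and the black bar is the median of the list. The lowest values lie among retinoid enzymes, storage and transport genes and response genes.

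Markers of other cell types moved with the genotype beside these genes. The counts below stand against 23.8% of all genes tested called lower and 24.1% called higher. Of 10 endoderm markers, 8 were tested and 6 were lower, 0 higher, and their summed level was 71.4 and 78.8 CPM in WT and 13.2 and 13.8 CPM in *Patz1* KO. Examples are *Foxa2* (log2 fold change -2.35) and *Dab2* (-3.34). Of 10 mesoderm and mesenchyme markers, 9 were tested and 7 were lower, 0 higher, and the summed level was 140 and 161 CPM in WT and 13.7 and 17.5 CPM in *Patz1* KO, with falls of *Col3a1* (log2 fold change -3.24) and *Pdgfra* (-3.96). No endoderm, mesoderm or MN marker was at 0 in all libraries. Of the MN markers, 7 of 10 were higher and 0 lower, among them *Prph* (log2 fold change 1.33) and *Chat* (0.99). Pluripotency markers summed to 9.40 and 12.3 CPM in WT and to 6.02 and 7.99 CPM in *Patz1* KO, with *Utf1* at 0 in every library. Of the 4 tested, 2 were lower, *Klf4* (log2 fold change -1.78) and *Dppa5a* (-1.71). The remaining tested markers, *Nanog* (log2 fold change -0.70) and *Zfp42* (0.46), had opposite signs and were not called. Both were named with their values already known. *Dppa5a* was not called without WT replicate 1 (-1.94), without WT replicate 2 (-1.44) or by DESeq2 (-1.74). *Rbp4* and *Ttr* are also expressed in visceral endoderm, and *Aldh1a2* in paraxial mesoderm as well as in MNs of the limb levels. Their part in the results above was not tested.

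**Figure D5:**
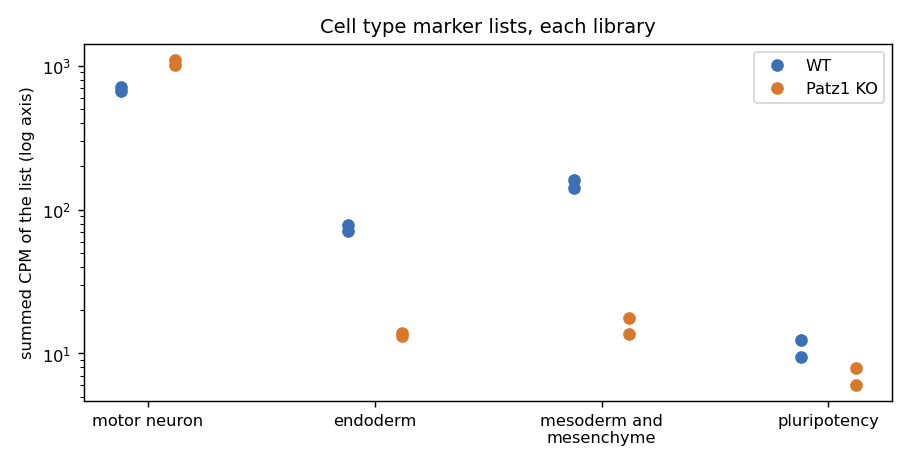
Summed CPM of the 4 marker lists in each library, on a log axis; points are libraries. The endoderm list and the mesoderm and mesenchyme list lie far lower in both *Patz1* KO libraries, and the MN list lies higher.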

How the data were processed

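RNA-seq was taken from 4 libraries of cervical MNs, grouped by the genotype in their titles and labels into WT and *Patz1* KO. The labels describe stranded TruSeq libraries of total RNA after ribosomal depletion. The deposited values are raw counts of reads per gene symbol on mm10. The submitters' processing notes list TopHat2 2.1.1, Bowtie2 2.3.1, featureCounts 1.6.2 and DESeq2, the paper names Bowtie 2 and DESeq2, and the annotation and strand setting are not given in the sources used here.

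Counts were tested with edgeR 4.0.16 (limma 3.58.1, R 4.3.3) by the quasi-likelihood test after TMM scaling and filterByExpr with a minimum count of 10, with Benjamini-Hochberg adjustment over all genes and a threshold of 0.05. The SE was |log2 fold change| / √F. The DESeq2 Wald test, the test of the study, was run here with DESeq2 1.42.0 as an alternative, along with 2 scalings, 2 filters, robust estimation, the replicate number as a block, a test against a 1-log2 change (glmTreat) and leave-one-out fits. The test was also run on simulated counts with the same dispersion for all genes, where it recovered 94.8% of 194 changed genes with 14 false calls. The data have many more called genes and *Patz1* KO libraries that vary more than those of WT. The simulation therefore gives no error rate for these data. Depth ran from 14769104 to 23881522 counts. Counting intervals come from counts summed over each group, so they cover counting error only and leave out the spread between replicates. The reads carry no molecular identifiers. Positions and exon lengths came from GENCODE M21 (GRCm38) and promoter windows from RefSeq (GRCm38.p6). A promoter match is a description only. The length alternative was chosen after seeing the data. The members and lists were chosen with earlier results of these data known. Named were all members, called enzymes, storage and transport genes, the RXR genes, the 4 called genes of smallest p in each other pathway list, the 2 such genes in each marker list, and the counted genes next to each member. 1 gene counted in the lists is not reported here by itself.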

Additional observations from a re-analysis of the deposited data

How the results depend on the processing

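The replicate numbers pair nothing in the labels, and libraries sharing a number deviated with a correlation of 0.027. With the replicate number as a block, when 51.6% of all genes were called, 2 of the 10 genes were higher and 7 lower. These were the numbers without the block, and no call of a member changed. Both other scalings and the absence of a filter gave the same counts. The share of all genes called was 48.4% with DESeq2 size factors, 46.1% with library size alone and 38% without a filter. A test against a change of 1 on the log2 scale, which 5.03% of all genes passed, left 1 member lower (*Cyp26a1*) and 0 higher. The calls of *Rarb* (-0.49), *Rarg* (1.26), *Cyp26b1* (-0.30), *Cyp26c1* (-2.46), *Crabp1* (0.58), *Crabp2* (-0.31), *Aldh1a2* (-1.21) and *Stra6* (-1.31) ended, because that test asks for more than a difference from 0. It left 10 of the other pathway genes lower and 1 higher. By list, 4 enzymes, 3 storage and transport genes, 3 response genes and 0 partner receptors or coregulators were lower. Called higher were 1 response gene, 0 enzymes, 0 storage and transport genes and 0 partner receptors or coregulators. *Crabp2* was not called by DESeq2 (-0.29, adjusted p = 0.0806) or with robust estimation (-0.31, adjusted p = 0.055); the cause was not tested. DESeq2, which called 32.3% of all genes, called 1 enzyme higher. With at least 10 counts in every library, which tests fewer genes and called 48.1% of them, 3 enzymes were lower.

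Leaving out a library leaves 1 library in a group, which is then assumed to vary like the others. A larger share of all genes was called without a *Patz1* KO library than in the full fit, and a smaller share without a WT library. A call gained or lost in these fits therefore depends on that assumption as well as on the gene. Over these 4 fits, 4 to 7 members were lower (4 without WT replicate 2, when 30.9% of all genes were called, and 5 without WT replicate 1, when 33.6% were) and 2 to 3 higher. The ranges were 0.11 to 0.29 for *Rara*, -0.34 to -0.24 for *Cyp26b1*, -3.12 to -1.89 for *Cyp26c1* and -0.54 to -0.094 for *Crabp2*. Between 1 and 2 enzymes, 1 and 2 storage and transport genes, and 1 and 2 partner receptors or coregulators were higher. A single enzyme and a single partner receptor or coregulator were called higher without WT replicate 1 and also without WT replicate 2, and 2 storage and transport genes were higher without either *Patz1* KO library. Among genes that were not called, the sign turned for *Meis1* (-0.067 to 0.041 over the 4 fits, and 0.00447 without a filter), *Zfp703* (-0.20 to 0.14), *Ngly1* (-0.15 to 0.073), *Mfsd5* (-0.20 to 0.092) and *Ireb2* (-0.088 to 0.0072). Depth limits *Cyp26c1*, *Adh1*, *Ttr* and *Stra8*, each with at most 2 counts in 1 or more *Patz1* KO libraries.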

Other observations

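The genes next to the 10 retinoic acid genes were read from GENCODE M21 on GRCm38. *Cyp26a1* and *Cyp26c1* are neighbours of each other, and 18 other counted genes lie next to a member, of which 12 were tested. By the edgeR test, 6 of these were lower and 1 was higher in *Patz1* KO MNs, or 58.3%, against 47.9% of all genes. *Exoc6* lies 1521 bases from *Cyp26c1*, on the side away from *Cyp26a1*, and was not called (log2 fold change -0.13), while *Myof*, 197499 bases beyond *Cyp26a1*, fell by 1.62 on the log2 scale. *Exoc6b*, 24578 bases from *Cyp26b1*, rose by 0.58, the opposite direction to *Cyp26b1*. *Islr*, a gene of mesenchymal cells, 2271 bases from *Stra6*, went from 131 and 124 counts to 47 and 27 (log2 fold change -2.20). *Cdc6*, a DNA replication gene 3877 bases from *Rara*, fell by 1.25, and *Nes*, the intermediate filament gene of neural progenitors, 17701 bases from *Crabp2*, fell by 0.72. On the other side of *Crabp2*, *Isg20l2* fell by 0.29, and *Polr2m*, next to *Aldh1a2*, fell by 0.27, and neither was called without WT replicate 1 or without WT replicate 2, nor *Isg20l2* by DESeq2 (log2 fold change -0.28). The neighbours *Ngly1*, *Mfsd5*, *Wdr61* and *Ireb2* were not called, and *Gjd3*, *Thrb*, *Itgb7*, *Gm10445*, *Aqp9* and *Gm16130* had too few counts to be tested.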
